A study of Homo sapiens with 6 samples.

Results

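Notch signalling passes between neighbouring cells, and 10 of its genes were followed here in arsenite-transformed and untreated prostate epithelial cells. They comprise the receptor genes NOTCH1, NOTCH2 and NOTCH3, the ligand genes JAG1, JAG2, DLL1 and DLL4, the target genes HES1 and HEY1, and LFNG, which encodes a glycosyltransferase that modifies Notch receptors. The genes were listed by name, and all 10 had a feature with a single gene symbol among the 18417 genes tested. Each had 1 such feature, so no choice between features was needed.

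CAsE-PE cells are RWPE-1 cells that became malignant while growing continuously in 5 µM sodium arsenite, and they were measured on 3 arrays, after 30, 33.5 and 35 weeks of exposure. RWPE-1 is an adult prostate epithelial line immortalised with human papillomavirus 18, a property that CAsE-PE shares, and it was measured untreated on 3 arrays, at passages 18, 38 and 42. The culture medium of both lines was K-SFM, a serum-free keratinocyte medium, to which pituitary extract and EGF had been added. Each group is 1 line, CAsE-PE came from a single exposure series as far as the labels say, and no untreated cells matched to it for time in culture were identified. The labels do not state whether passages or weeks were independent cultures, so p-values measure only the spread between these arrays, which may be technical.

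When a ligand on one cell binds a Notch receptor on the next, the receptor is cut by an ADAM protease and then by gamma-secretase. The freed intracellular part enters the nucleus, joins the DNA-binding protein RBPJ and a Mastermind coactivator, and switches on genes such as HES1, HEY1 and NRARP. HES and HEY proteins are repressors of transcription, and NRARP limits the signal. In stratified and glandular epithelia, including the prostate, Notch takes part in the choice between basal and differentiated fates.

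RBPJ sites contain the letters TGGGAA, which were searched on both strands of the 250 bases before the transcription start in RefSeq promoters of GRCh38.p14. Among 8 members with a promoter in that table, HES1 alone held the letters, and of all 27305 promoters 21.1% held them. HES1 had 2 matches, whose first bases lie 84 and 70 bases before the start. Other target genes of the HES and HEY family with matches were HES4 with 1, HES5 with 2, HEYL with 2 and HEY2 with 1. HES1 is shown beside 3 of these relatives, HES4, HES5 and HEYL, because they hold the same letters while HES1 varied between arrays far more than they did. Capitals mark TGGGAA or its reverse complement, and each sequence reads 5′ to 3′ in the direction of transcription.

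HES1 (chr3:194135898-194136147, plus strand): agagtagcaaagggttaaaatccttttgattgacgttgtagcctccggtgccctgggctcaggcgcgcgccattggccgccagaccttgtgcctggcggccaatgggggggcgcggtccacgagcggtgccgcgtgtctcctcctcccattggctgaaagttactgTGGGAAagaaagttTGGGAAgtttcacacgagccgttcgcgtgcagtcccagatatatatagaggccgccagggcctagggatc
HES4 (chr1:1000098-1000347, minus strand): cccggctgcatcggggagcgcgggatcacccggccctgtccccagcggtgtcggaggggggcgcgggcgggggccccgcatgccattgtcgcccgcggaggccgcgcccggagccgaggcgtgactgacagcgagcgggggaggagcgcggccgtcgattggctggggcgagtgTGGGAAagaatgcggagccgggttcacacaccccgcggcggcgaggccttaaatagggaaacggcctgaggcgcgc
HES5 (chr1:2530264-2530513, minus strand): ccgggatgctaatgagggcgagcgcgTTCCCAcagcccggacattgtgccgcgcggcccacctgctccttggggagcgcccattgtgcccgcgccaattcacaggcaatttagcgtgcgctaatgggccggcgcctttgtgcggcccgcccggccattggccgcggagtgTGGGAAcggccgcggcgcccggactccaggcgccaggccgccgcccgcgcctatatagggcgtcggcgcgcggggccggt
HEYL (chr1:39639644-39639893, minus strand): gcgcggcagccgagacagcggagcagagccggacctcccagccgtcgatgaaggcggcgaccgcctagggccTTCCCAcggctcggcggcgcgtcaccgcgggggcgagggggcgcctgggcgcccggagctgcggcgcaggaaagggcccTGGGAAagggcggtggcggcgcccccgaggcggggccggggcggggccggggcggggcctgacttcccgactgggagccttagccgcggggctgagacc

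The HES1 window also held 3 matches to CACNAG, the N-box that HES proteins bind, none of which overlapped TGGGAA. That motif was in 2 of the 8 member promoters, HES1 and NOTCH3, and in 32.0% of all promoters. The E-box CACGTG was in 0 of the 8 and in 6.49% of all promoters. These matches describe the letters in the window and do not show binding.

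All levels below are log2(intensity + 1), every difference subtracts RWPE-1 from CAsE-PE on that scale, with n = 3 arrays per group, and SE is the standard error of the limma fit. A gene was called when its Benjamini-Hochberg adjusted p over all genes was under 0.05. The deposited intensities carry no detection call, and intensities of different features were not compared with each other. Array medians lay between 91.7 and 97.2 intensity units. Correlations of log2 values ran from 0.985 to 0.995 between arrays of a group and from 0.957 to 0.969 between groups. The basal keratin gene KRT5 averaged 11.93 ± 0.13 in CAsE-PE and 12.05 ± 0.05 in RWPE-1 (SD, n = 3 each). Of 8 basal markers measured, KRT14 (-1.60), KRT15 (-1.77) and LAMB3 (-1.48) were called lower in CAsE-PE and TRIM29 (0.48) higher. Over all genes 8.71% were called lower and 9.04% higher. KRT5 (-0.12), ITGA6 (-0.21), ITGB4 (0.16) and DST (0.19) were not called. Of the luminal prostate markers 4 of 6 measured were in the dimmest 33.3% of genes, the secreted luminal protease gene KLK3 among them. So were 6 of 8 endothelial, 6 of 8 fibroblast and 6 of 7 leukocyte markers. The luminal markers KRT8 (mean 11.20 in CAsE-PE and 11.12 in RWPE-1) and KRT18 (10.50 and 10.46) were brighter and not called. Also brighter were the endothelial CLDN5 and EGFL7, the fibroblast COL1A1 and THY1, and the leukocyte CD68. THY1 (-1.30) and CD68 (-0.89) were called lower in CAsE-PE, as were the dim PDGFRB (-0.32) and CD14 (-0.43). TP63 is not analysed here.

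Among the 10 genes, JAG1 and NOTCH2 were lower in CAsE-PE and none was higher past the threshold. JAG1 was 1.92-fold lower and NOTCH2 1.31-fold lower. Over all genes 17.7% were called, 9.04% higher and 8.71% lower, so 2 of 10 is close to the background. The groups did not overlap for JAG1, NOTCH2 and NOTCH3, against 38.9% of all genes. The median difference of the 10 genes was 0.17, beside -0.06 over all genes. At an unadjusted p under 0.05 there were 3 genes, the third being NOTCH3, beside 32.4% of all genes.

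**Figure D1:**
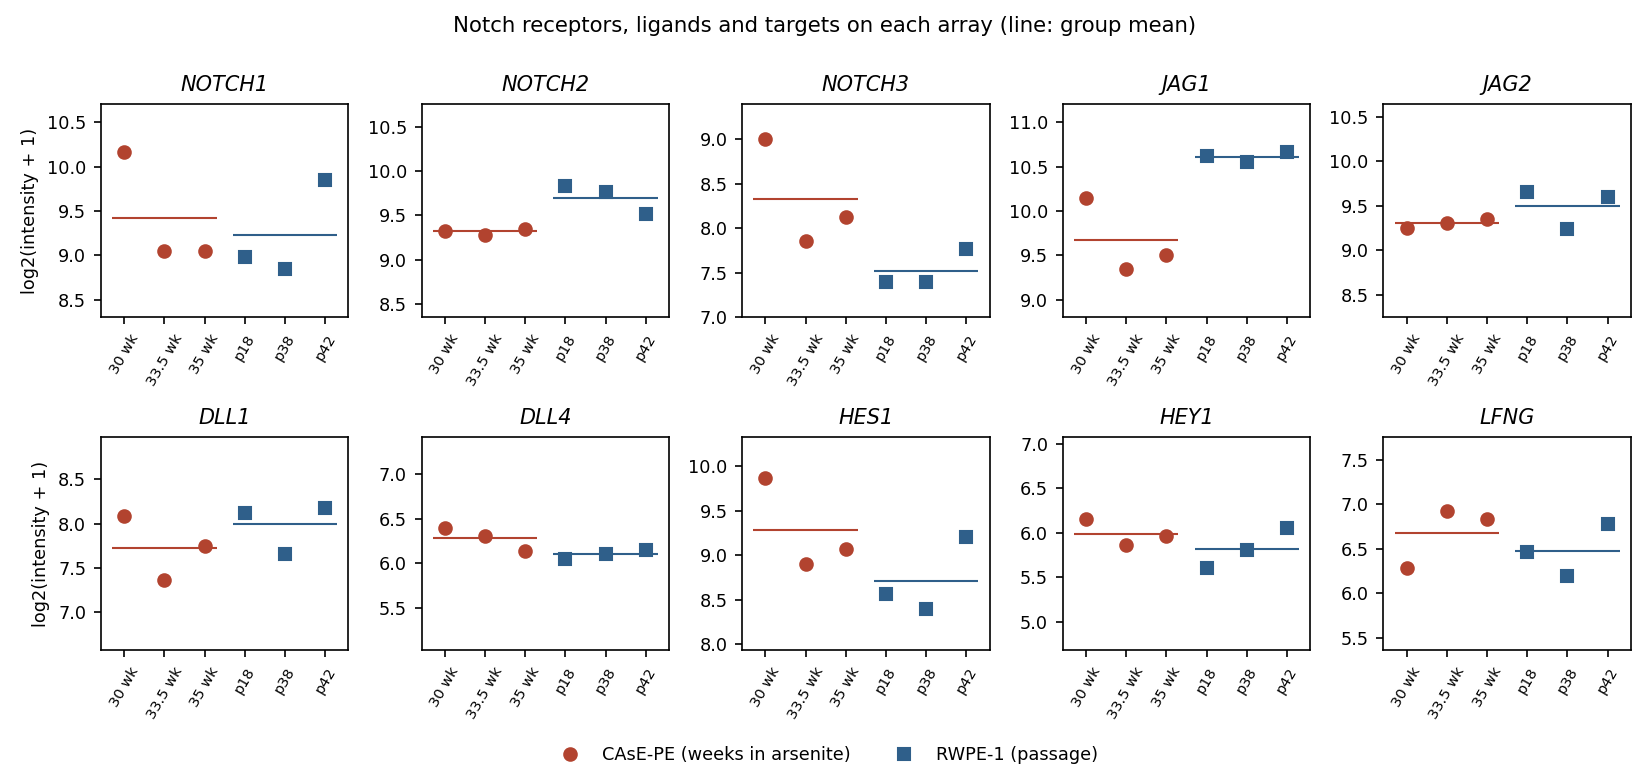
Level of each Notch gene on each array, as log2(intensity + 1); circles are CAsE-PE by weeks in arsenite, squares are RWPE-1 by passage, and lines are group means of 3 arrays. Every panel spans the same number of log2 units. NOTCH1, NOTCH3 and HES1 are highest at 30 weeks, and JAG1 is lower on all CAsE-PE arrays than on any RWPE-1 array.

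The 3 receptors differed from one another. NOTCH3 read 9.00, 7.86 and 8.13 in CAsE-PE at 30, 33.5 and 35 weeks, against 7.40, 7.40 and 7.77 in RWPE-1 at passages 18, 38 and 42. All CAsE-PE arrays lay above all RWPE-1 arrays, by the narrowest margin between 33.5 weeks and passage 42. The means were 8.33 ± 0.59 in CAsE-PE and 7.52 ± 0.22 in RWPE-1 (SD, n = 3 each), a difference of 0.81 (SE 0.26, 95% interval 0.23 to 1.39) that missed the threshold (limma adjusted p = 0.0601). Without the 30-week array the difference was 0.47 (limma adjusted p = 0.0649), and without the 33.5-week array it was 1.04 and passed (0.0257). With any other array left out it did not pass (adjusted p up to 0.17).

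NOTCH2, a receptor gene that NOTCH2NL paralogs resemble, read 9.32, 9.28 and 9.35 in CAsE-PE, against 9.83, 9.76 and 9.52 in RWPE-1. The groups did not overlap, and the CAsE-PE arrays agreed closely with one another. NOTCH2 fell by 0.39 (SE 0.11, limma adjusted p = 0.04). The call was lost when any array other than that of passage 42 was left out, with adjusted p up to 0.142, and when array medians were centred (adjusted p = 0.0595). A second feature that lists NOTCH2 together with NOTCH2NLA and NOTCH2NLB was not assigned to a gene. It read 9.71, 9.60 and 9.70 in CAsE-PE, against 9.55, 9.69 and 9.70 in RWPE-1, so its groups overlapped.

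NOTCH1, a receptor gene with a known role in epithelial differentiation, read 10.16, 9.05 and 9.05 in CAsE-PE, against 8.98, 8.85 and 9.85 in RWPE-1. Each group held 1 high array, at 30 weeks and at passage 42, and the groups overlapped. The difference was 0.19 (SE 0.33, 95% interval -0.56 to 0.94, limma adjusted p = 0.715). Without the 30-week array it was -0.18, and without the passage 42 array it was 0.50, neither past the threshold.

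Of the ligands, JAG1 was the one that fell. JAG1, a Jagged-type ligand made by basal prostate cells among others, read 10.15, 9.35 and 9.50 in CAsE-PE at 30, 33.5 and 35 weeks, against 10.62, 10.55 and 10.66 in RWPE-1 at passages 18, 38 and 42. The RWPE-1 arrays were nearly level, and the 30-week array lay between them and the later CAsE-PE arrays. The means were 9.67 ± 0.42 in CAsE-PE and 10.61 ± 0.05 in RWPE-1 (SD, n = 3 each), and JAG1 fell by 0.94 (SE 0.19, 95% interval -1.37 to -0.52, limma adjusted p = 0.00806). The call held with any array left out, with differences from -1.19 to -0.79. In bulk RNA, fewer cells expressing a gene and less RNA per cell cannot be told apart.

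**Figure D2:**
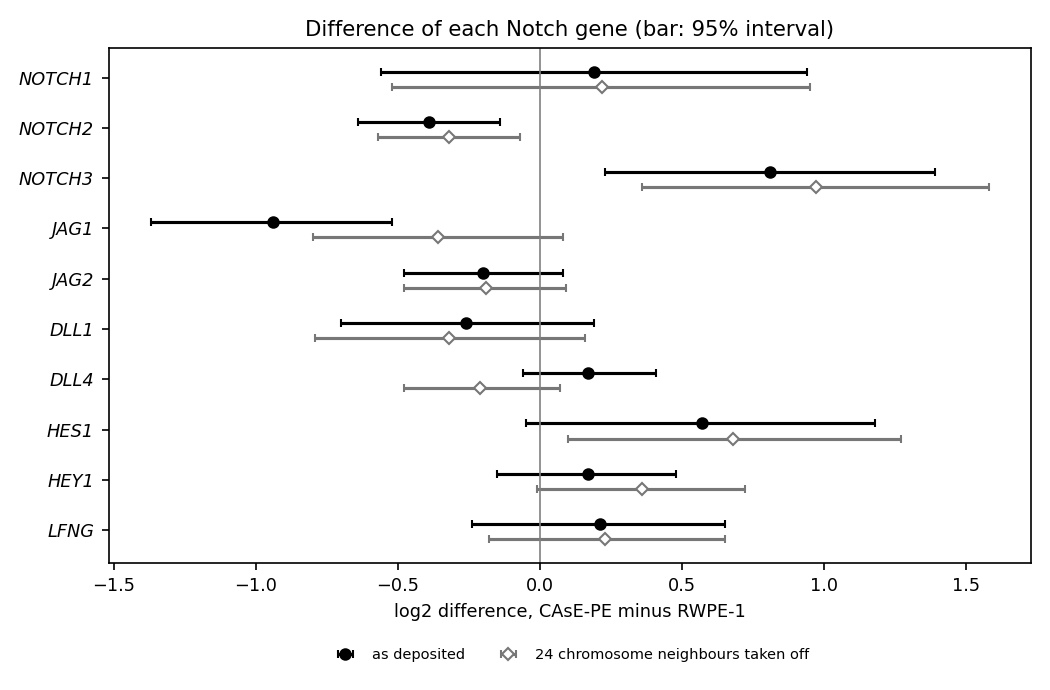
Difference of each Notch gene, CAsE-PE minus RWPE-1, with its 95% interval from the limma fit, as deposited (filled) and with the median shift of 24 neighbouring genes taken off (open). JAG1 moves from -0.94 to -0.36 when its neighbours are taken off, and NOTCH3 from 0.81 to 0.97.

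JAG1 lies on chromosome 20p among genes that were also lower in CAsE-PE. Of its 24 nearest genes outside the dimmest 33.3%, all 24 had negative differences, 18 were called lower and 0 higher, with a median difference of -0.55. The nearest were MKKS (-0.16, SE 0.15) and SLX4IP (-0.51, SE 0.13) on one side and BTBD3 (-0.82, SE 0.12) and TASP1 (-0.51, SE 0.13) on the other. Differences below that of JAG1 were found in 5 of the 24, from PLCB1 (-1.02) to FERMT1 (-1.83), the gene of an integrin-binding protein of epithelial cells.

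With the neighbours' median shift (-0.59) taken off array by array, JAG1 read 10.44, 9.58 and 9.81 in CAsE-PE, against 10.28, 10.19 and 10.43 in RWPE-1. The groups then overlapped, with the 30-week array the highest of all 6. The difference was -0.36 (SE 0.20, 95% interval -0.80 to 0.08) and no longer passed (limma adjusted p = 0.243). Without the 30-week array it was -0.60 and passed (limma adjusted p = 0.0157). The neighbours' median deviation from their mean over 6 arrays was -0.29, -0.24 and -0.31 in CAsE-PE at 30, 33.5 and 35 weeks.

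**Figure D3:**
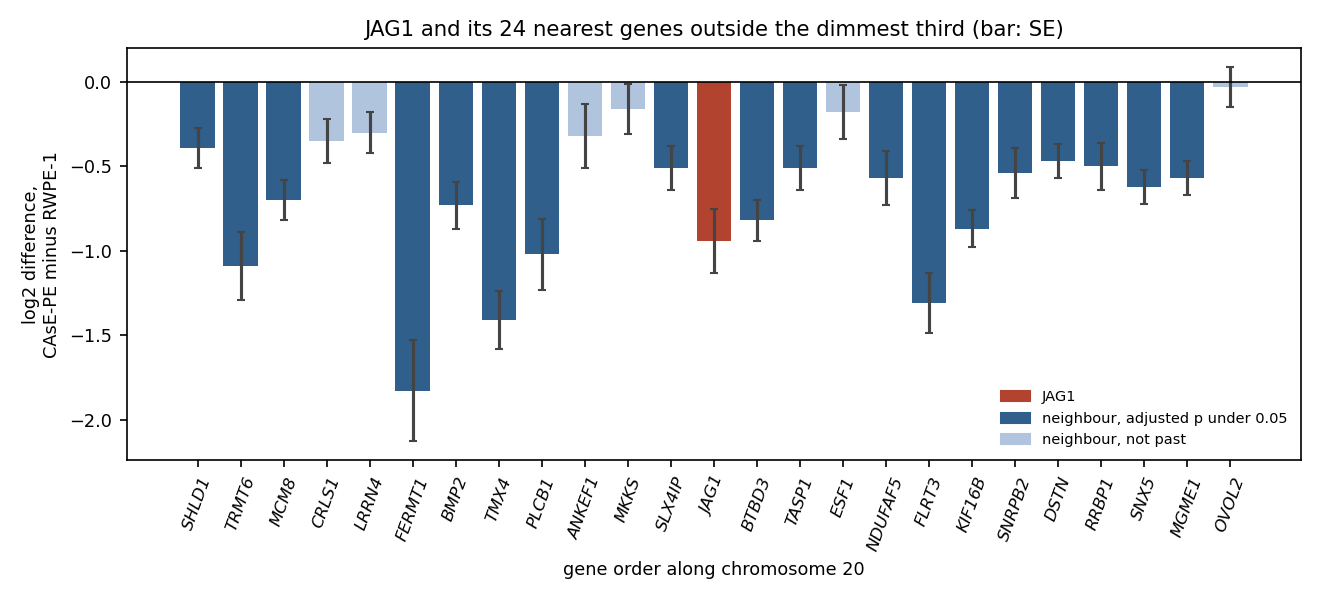
Difference, CAsE-PE minus RWPE-1, of JAG1 (red) and its 24 nearest genes outside the dimmest 33.3%, in gene order along chromosome 20, with SE bars; dark bars passed an adjusted p of 0.05 and pale bars did not. All 24 neighbours are below 0, and 5 are below JAG1.

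For the other members the shift of 24 neighbours was smaller, from -0.19 for HEY1 to 0.38 for DLL4. With it taken off NOTCH3 was higher by 0.97 (SE 0.27, limma adjusted p = 0.0374) and NOTCH2 differed by -0.32 (adjusted p = 0.0813). By this measure 17.7% of 18362 genes with a position passed. That NOTCH3 call was lost without the passage 18, passage 38 or 35-week array (adjusted p from 0.0714 to 0.112). DLL4 changed sign, to -0.21 (SE 0.12, adjusted p = 0.283).

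JAG2, the second Jagged-type ligand, read 9.25, 9.30 and 9.35 in CAsE-PE, against 9.65, 9.24 and 9.60 in RWPE-1. The passage 38 array was as low as the CAsE-PE arrays, so the groups overlapped. The difference was -0.20 (SE 0.12, 95% interval -0.48 to 0.08, limma adjusted p = 0.304). DLL1, a Delta-type ligand, read 8.08, 7.37 and 7.75 in CAsE-PE, against 8.12, 7.66 and 8.18 in RWPE-1, and differed by -0.26 (SE 0.20, limma adjusted p = 0.396). Its lowest array was that at 33.5 weeks, and the groups overlapped.

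DLL4, a Delta-type ligand best known from sprouting blood vessels, and HEY1 were both in the dimmest 33.3% of genes. That is a cut by rank, and without background values it could not be settled whether either gene was detected. DLL4 read 6.39, 6.30 and 6.14 in CAsE-PE, against 6.05, 6.10 and 6.15 in RWPE-1, a difference of 0.17 (SE 0.10, limma adjusted p = 0.286). HEY1, a Hairy-related repressor gene induced by Notch, read 6.16, 5.86 and 5.96 in CAsE-PE, against 5.60, 5.81 and 6.06 in RWPE-1, again a difference of 0.17 (SE 0.14, limma adjusted p = 0.428). Both pairs of groups overlapped. Of 8 endothelial markers 0 were called, and the median of the list lay between 5.63 and 5.73 on CAsE-PE arrays and between 5.73 and 5.93 on RWPE-1 arrays.

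HES1, a repressor gene widely used as a readout of Notch, read 9.87, 8.90 and 9.07 in CAsE-PE at 30, 33.5 and 35 weeks, against 8.56, 8.39 and 9.20 in RWPE-1 at passages 18, 38 and 42. The 30-week array was the highest of all, and the passage 42 array lay above both later CAsE-PE arrays. The difference was 0.57 (SE 0.27, 95% interval -0.05 to 1.18, limma adjusted p = 0.184), 0.27 without the 30-week array and 0.81 without that of passage 42. LFNG, whose product changes which ligands a Notch receptor answers to, read 6.28, 6.93 and 6.84 in CAsE-PE, against 6.47, 6.19 and 6.78 in RWPE-1. Its lowest CAsE-PE array was the one at 30 weeks, and the difference was 0.21 (SE 0.20, limma adjusted p = 0.494).

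Differences within CAsE-PE were as large as those between the groups for several members. At 30 weeks NOTCH1 lay 1.10, NOTCH3 0.87, HES1 0.79 and JAG1 0.65 above the higher of the 2 later arrays. Thus 4 of 10 members were more than 0.5 log2 units above both later arrays, a limit chosen after the values were seen, against 2.26% of all genes. In the other direction 1 of 10, LFNG, was more than 0.5 below both, against 2.85% of all genes. After quantile normalisation 4 members were above both by this limit against 2.37% of all genes, and with array medians centred 4 against 2.73%. At limits of 0.3 and 0.7 the counts above both were 5 against 6.71% and 3 against 1.02%. The members were listed with earlier results of these data known, so these counts describe the list and are not independent support. All of this rests on 1 array, and exposure time and that array cannot be told apart.

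Of the 62 other pathway genes 4 (6.45%) were above both later arrays by more than 0.5 at 30 weeks, against 2.26% of all genes. Below both by that much were 2 (3.23%), DLL3 and DNER, against 2.85% of all genes. NRARP, the target gene whose product limits the signal, read 8.74, 7.66 and 7.69 in CAsE-PE, against 7.57, 7.56 and 7.58 in RWPE-1. Its level at 30 weeks stood 1.06 above the other CAsE-PE arrays, and those lay within a narrow span of the RWPE-1 values. The group difference was 0.46 (SE 0.25, limma adjusted p = 0.244). The other genes above both later arrays were the basal keratin gene KRT14 (1.09 above), the cell cycle inhibitor gene CDKN1A (0.83) and the Mastermind gene MAML3 (0.58). NRARP held 0 matches to TGGGAA in the promoter window.

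The other HES and HEY target genes with TGGGAA moved little between arrays. HES4 read 8.53, 8.19 and 8.31 in CAsE-PE, against 8.29, 8.18 and 8.31 in RWPE-1. HES5 read 7.27, 7.25 and 7.10 in CAsE-PE, against 7.14, 7.22 and 7.34 in RWPE-1. HEYL read 6.22, 6.20 and 6.06 in CAsE-PE, against 6.36, 6.25 and 6.40 in RWPE-1. HEY2 differed by 0.02 (SE 0.10) and its groups overlapped. Both HEYL and HEY2 are in the dimmest 33.3% of genes. None of the 4 passed the threshold (limma adjusted p = 0.648, 0.885, 0.258 and 0.926).

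**Figure D4:**
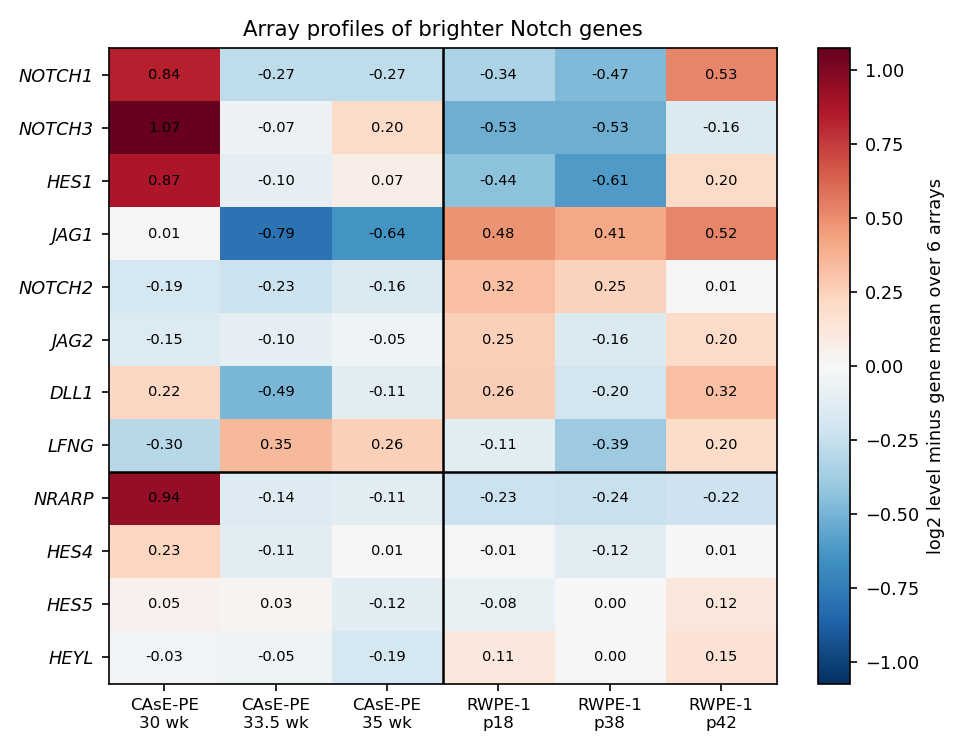
Log2 level of 8 members outside the dimmest 33.3% (above the line) and 4 other target genes (below it) on each array, minus the gene's mean over 6 arrays. At 30 weeks NOTCH3 stands at 1.07, NRARP at 0.94, HES1 at 0.87 and NOTCH1 at 0.84, while HES5 and HEYL stay between -0.19 and 0.15 on all arrays. HEYL is in the dimmest 33.3%, where small differences could not be settled without background values.

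In RWPE-1 the passage 42 array stood out for NOTCH1, by 0.87 above the higher of passages 18 and 38, and for HES1, by 0.64. These were 2 of 10 members past 0.5, against 1.3% of all genes. Below both earlier passages by more than 0.5 were 0 of 10, against 2.98% of all genes. NRARP differed by less than 0.1 between the 3 passages.

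Slopes with exposure time in CAsE-PE and with passage in RWPE-1 were fitted in a second limma model with 2 residual degrees of freedom. No member passed for either slope, where 0.25% of all genes passed for weeks and 0.0217% for passage. At an unadjusted p under 0.05 there were 5 members for weeks, beside 11.3% of all genes, and 0 for passage, beside 5.82%. The 5 were NOTCH1 (-0.238 per week, SE 0.072), NOTCH3 (-0.200, SE 0.055), HES1 (-0.179, SE 0.066), JAG1 (-0.147, SE 0.043) and LFNG (0.124, SE 0.054). Their adjusted p-values in this limma model began at 0.195, for NOTCH3. With arrays at 30, 33.5 and 35 weeks, the slope with weeks rests largely on the 30-week array. For these 5 genes it mostly restates the gap between that array and the later ones, and is not separate support.

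Likeness of profiles was measured, as a description over these 6 arrays, by the root mean square difference of log2 values after each gene's mean was taken off. Among 12277 other genes outside the dimmest 33.3%, HES1 was the 36th closest to NOTCH3 (0.18), and NOTCH3 the 27th and NOTCH1 the 64th closest to HES1 (0.18 and 0.22). NOTCH1 was less close to NOTCH3, at rank 920 (0.37). JAG1 ranked far from both NOTCH3 and HES1, 11666th for NOTCH3. The closest to NOTCH3 were KCTD16 (0.079), APOL6 (0.086) and SMAD9 (0.098), and the closest to HES1 were RASSF5 (0.098), ALDH6A1 (0.11) and HDAC5 (0.11). For JAG1 they were ZNF117 (0.058) and ERV3-1 (0.083), both on chromosome 7, and KDM5B (0.11) on chromosome 1.

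Around the 10 members, 62 of 69 listed genes of the pathway were measured, of which 4 were higher, 9 lower and 49 not past the threshold. Their median difference was -0.11, beside -0.06 over all genes, and 13 of 62 called is close to the 17.7% of all genes. Calls of 5 of the 13, DNER, CNTN1, NEURL1, GATA3 and KRT14, held under every alternative run, and those of the other 8 were lost under at least 1.

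The largest differences were in non-classical ligand genes. CNTN1, contactin 1, a cell-surface adhesion protein, read 7.22, 7.44 and 6.96 in CAsE-PE, against 9.40, 8.92 and 9.73 in RWPE-1. It was 4.42-fold lower (log2 difference -2.14, SE 0.20, limma adjusted p = 0.000179), with the groups far apart. DNER, a membrane protein with EGF-like repeats, read 8.67, 9.72 and 9.68 in CAsE-PE, against 7.46, 7.56 and 7.39 in RWPE-1. It was 3.69-fold higher (1.88, SE 0.25, limma adjusted p = 0.00108), with its lowest CAsE-PE value at 30 weeks. DLK2, a Delta-like protein gene, fell by 0.61 (SE 0.15), while NOTCH4, DLL3 and DLK1 did not pass. The DLK2 call was lost without the passage 18, passage 42 or 30-week array (adjusted p up to 0.0724).

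**Figure D5:**
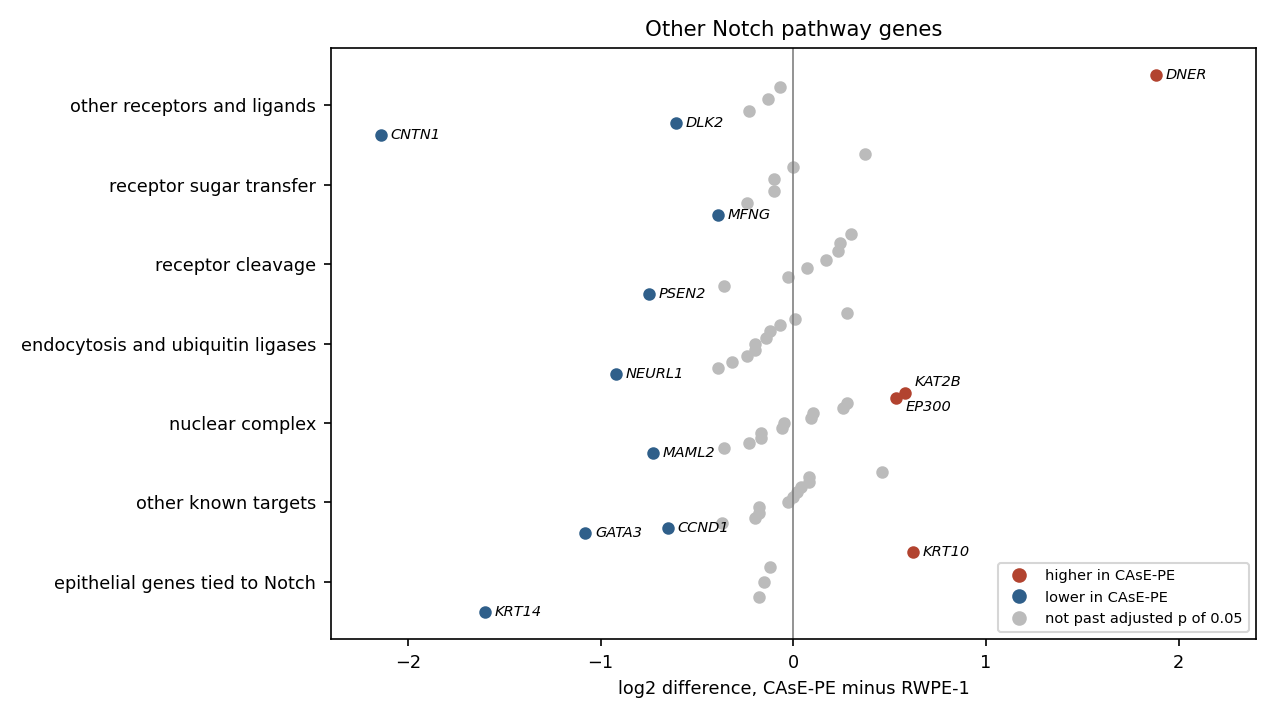
Difference, CAsE-PE minus RWPE-1, of 62 other Notch pathway genes by role; red genes were higher and blue genes lower at an adjusted p under 0.05, and grey genes did not pass. CNTN1 (-2.14) and DNER (1.88) lie farthest from 0.

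Among the 6 enzymes that add sugars to the receptor, 1 fell. It was MFNG, manic fringe, with a difference of -0.39 (SE 0.10) and a level in the dimmest 33.3%. Its call was lost after quantile normalisation (-0.25, adjusted p = 0.14) and without the passage 18, passage 38, 30-week or 35-week array (adjusted p up to 0.132). The related RFNG differed by 0.37 (SE 0.14, limma adjusted p = 0.0989). Of 8 receptor-cleaving genes PSEN2, a catalytic subunit of gamma-secretase, fell by 0.75 (SE 0.13, limma adjusted p = 0.0047), and relative to its neighbours, which shifted by -0.32, it differed by -0.43 (adjusted p = 0.0704). The proteases ADAM10 (0.24, SE 0.10) and ADAM17 (0.30, SE 0.13) did not pass.

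Of 11 endocytosis and ubiquitin ligase genes NEURL1, a ligase for Notch ligands, was lower, with 7.16, 7.02 and 6.96 in CAsE-PE, against 7.87, 7.93 and 8.12 in RWPE-1. The groups were well apart, and the difference was -0.92 (SE 0.11, limma adjusted p = 0.000674). In the nuclear complex of 13 genes, the acetyltransferase genes EP300 (0.53, SE 0.09) and KAT2B (0.58, SE 0.17) rose and the Mastermind gene MAML2 fell by 0.73 (SE 0.17). The neighbours of EP300 on chromosome 22 shifted by 0.43, and relative to them EP300 differed by 0.10 (adjusted p = 0.533). The KAT2B call was lost without any 1 array other than passage 42 (adjusted p up to 0.142), after quantile normalisation (0.0659), with a pseudocount of 16 (0.0507) and with neighbours taken off (0.095), and that of MAML2 without passage 38 or 42 (up to 0.065). RBPJ itself differed by -0.23 (SE 0.09, limma adjusted p = 0.129).

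Among 13 other genes known as Notch targets, 2 fell and 0 rose. GATA3, a transcription factor gene of luminal and lymphoid cells, read 6.97, 6.87 and 7.15 in CAsE-PE, against 8.27, 8.16 and 7.81 in RWPE-1. GATA3 was 2.12-fold lower (-1.08, SE 0.14, limma adjusted p = 0.000973). The cyclin D1 gene CCND1 fell by 0.65 (SE 0.17) and missed the threshold without the passage 18, passage 38, 33.5-week or 35-week array (adjusted p up to 0.113) and with neighbours taken off (0.0521). Of 5 epithelial genes tied to Notch, the suprabasal keratin gene KRT10 rose by 0.62 (SE 0.18) and the basal keratin gene KRT14 fell by 1.60 (SE 0.31). The KRT10 call was lost without the passage 38, passage 42, 30-week or 35-week array (adjusted p up to 0.136). KRT14 read 10.18, 8.72 and 9.09 in CAsE-PE, against 11.12, 10.81 and 10.84 in RWPE-1, with the 30-week array between the later CAsE-PE arrays and RWPE-1, as for JAG1.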

How the data were processed

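Total RNA was measured on 6 single-colour, biotin-labelled arrays. The authors deposited 1 linear intensity per feature and array for 33252 features, with values up to 16616.6, and how they corrected background and scaled arrays is not stated in the labels. GEO's platform annotation named a single gene for 19460 features and several for 1754, and did not list 12038. Of those with 1 symbol, 19425 matched the RefSeq table of GRCh38.p14, used for chromosomes and gene order, and 18417 genes were kept at their brightest feature.

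Values were taken as log2(intensity + 1), which understates changes of dim genes, and fitted by limma 3.58.1 under R 4.3.3 (eBayes, two-sided, 4 residual degrees of freedom, Benjamini-Hochberg). Neighbour shifts are medians over 12 brighter genes on each side, on gene-centred values. Promoters came from RefSeq. Members, lists and motifs were chosen with earlier results of these data known. Named genes were all members, called genes of the pathway lists, neighbours of JAG1 and the genes most like 3 members. HES and HEY genes, NRARP and some uncalled genes were added after their values were seen. The fits were tested on simulated data. Other versions were Python 3.11.15, numpy 2.4.6 and pandas 2.3.3. Alternatives are given in the closing section.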

Additional observations from a re-analysis of the deposited data

How the results depend on the processing

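With 3 arrays per group and no background values, neither detection nor small differences of dim genes could be settled. No paired analysis was possible because the labels give no replicate numbers shared between groups. No called difference changed sign. Array weights gave 2596 genes higher and 2746 lower, against 1665 and 1604, with 3 members higher, NOTCH3 (0.74), HES1 (0.64) and LFNG (0.49), and 14 other pathway genes lower. Centring array medians left 1 member lower, with NOTCH2 at -0.36. Taking off 24 neighbours left 0 members lower and 1 higher, with JAG1 at -0.36, NOTCH2 at -0.32 and NOTCH3 at 0.97, and 2 other pathway genes higher. Quantile normalisation, a pseudocount of 16, leaving out the dimmest genes (DLL4 and HEY1 among them), averaging features and a trended robust variance changed no member's call and no slope count.

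With 1 array left out, genes called higher numbered 949 to 1665 and lower 939 to 1519, fewest without passage 38. Members called lower numbered 1 to 2 and higher 0 to 1, and other pathway genes called higher 2 to 3 and lower 6 to 8. NOTCH2 ranged from -0.48 to -0.32 and NOTCH3 from 0.47 to 1.04. With neighbours taken off, JAG1 ranged from -0.60 to -0.16, NOTCH2 from -0.39 to -0.25 and NOTCH3 from 0.61 to 1.23.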
